A study of Homo sapiens with 6 samples.

Results

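Expression of integrin and laminin genes was followed in the established human cell line MDA-MB-231, which derives from a triple-negative breast cancer. Cells had spent 24 h in disulfiram with copper (DSF/Cu, 0.2 µM) or in the vehicle DMSO. The genes were all protein-coding rows of the deposited table whose symbol names an integrin alpha chain, an integrin beta chain or a laminin chain. They numbered 38 of the 58825 genes in the table, with 18 integrin alpha chains, 8 integrin beta chains and 12 laminin chains. Each group held 3 libraries of poly(A) RNA, and each library pooled the cells of 3 wells. No library had disulfiram or copper alone, and a single cell line was used. The labels do not say whether repeats were grown apart, so p-values cover only the spread between these samples, and that spread may be technical. In such bulk samples, fewer cells of a type and less RNA per cell cannot be told apart.

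Integrins are adhesion receptors at the cell surface, each made of one alpha and one beta chain. Laminins are large basement membrane proteins, each made of one alpha, one beta and one gamma chain, and they are ligands of several integrins. The chains encoded by LAMA3 and LAMB3 belong to the laminin that anchors epithelial cells, including those of the breast, to the basement membrane. Integrin pairs of ITGA3 or ITGA6 with ITGB1, and of ITGA6 with ITGB4, bind laminins, while ITGAV pairs with several beta chains to bind matrix proteins such as vitronectin and fibronectin.

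After DSF/Cu, 7 genes of these families fell: the integrin chains ITGA3, ITGAE and ITGB5 and the laminin chains LAMA3, LAMA5, LAMB1 and LAMB2. Another 4 rose: ITGB3, ITGAM, LAMA1 and LAMB3. Of the 27 genes tested, 25.9% fell and 14.8% rose, against 16.8% and 18.5% of all tested genes. The LAMB3 call ended under 8 of 14 other settings, that of ITGAM under 2 and that of LAMA1 under 1. ITGA3 was 1.79-fold lower and LAMA5 1.76-fold lower, while ITGB3 was 2.02-fold higher. ITGB1, by far the most abundant integrin chain, did not pass the test, nor did LAMC1, the gamma chain of most laminins.

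Libraries held 55563223 to 61633168 counts in DSF/Cu and 62165212 to 70883177 in DMSO. Of the 38 genes, 27 passed the filter on low counts and were tested, with edgeR's quasi-likelihood test on counts scaled by TMM and a Benjamini-Hochberg adjusted p under 0.05 over all 18229 genes tested. Among these 27, 4 rose (14.8%) and 7 fell (25.9%), where 18.5% of all tested genes rose, 16.8% fell and 35.2% changed in either direction. The shares were not tested against each other. The median log2 change was -0.12 in the 27 genes and 0.002 in all tested genes. Every DSF/Cu library lay above every DMSO library for 5 of the 27 genes and below for 12, against 26% above, 25.2% below and 51.2% in either direction over all tested genes. The fall of all 7 genes passed the test under each of the 14 other settings tried.

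With total-count scaling the median log2 change of all tested genes was -0.182, and 3 of the 27 genes were called higher and 12 lower, where 12.9% of all tested genes were called higher and 26.6% lower. Folds and log2 changes from edgeR are given with TMM unless another scaling is named. Calls in the marker lists below used TMM, with which 18.5% of all tested genes were raised and 16.8% lowered. Luminal genes summed to 314 to 321 CPM in DSF/Cu and 502 to 573 CPM in DMSO, with 5 of 9 tested genes lowered and none raised. Mesenchymal genes, whose expression is typical of this line, summed to 3605 to 3983 CPM in DSF/Cu and 4607 to 4902 CPM in DMSO, with 1 of 5 raised and 2 lowered. Endothelial genes summed to 3.21 to 4.17 CPM in DSF/Cu and 6.40 to 7.83 CPM in DMSO, with KDR lowered among 2 tested. Fibroblast genes summed to 6.81 to 8.59 CPM in DSF/Cu and 2.15 to 3.29 CPM in DMSO, with COL1A1 raised among 2 tested. Platelet genes summed to 0.567 to 0.975 CPM in DSF/Cu and 0.341 to 0.418 CPM in DMSO, and the 1 gene tested was not called. The part of these shifts in the results was not tested.

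**Figure D1:**
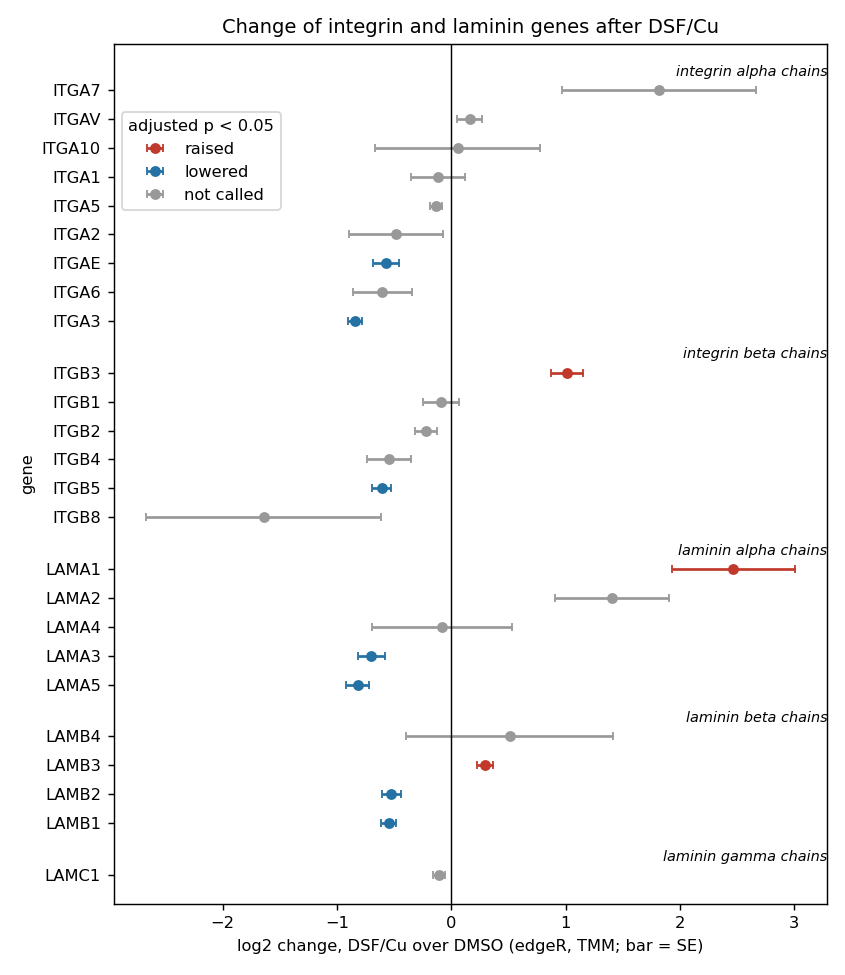
Log2 change of 25 tested integrin and laminin genes (rows, grouped by chain type) in DSF/Cu over DMSO, with bars for the SE; red and blue points passed the test as raised and lowered. ITGAM, which had no counts in DMSO, is left out. LAMA1 at 2.47 and ITGB3 at 1.02 lie furthest to the right of the called genes, and ITGA3 at -0.84 furthest to the left.

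Sequence upstream of a gene is shown here for 4 laminin chains, since chains of the same protein differed in their calls. The windows hold 250 bases before and 50 after a start site, 300 bases in all, and come from RefSeq on GRCh38.p14, which held 33 windows for 26 of the 38 genes. The motif TGANTCA, to which AP-1 factors bind, was found on either strand in 3 of the 33 windows, those of ITGA5, LAMA3 and LAMB3, and in 7.71% of all 35116 windows of this length. In the LAMA3 and LAMB3 windows below, capitals mark it. Where a gene had several windows, the one with the most matches is shown. The LAMA3 window lies at chr18:23872770-23873069 (plus strand), at a start site 183577 bases inside the gene as the table gives it. The LAMB3 window lies at chr1:209651325-209651624 (minus strand), at a start site 1051 bases inside the gene.
LAMA3: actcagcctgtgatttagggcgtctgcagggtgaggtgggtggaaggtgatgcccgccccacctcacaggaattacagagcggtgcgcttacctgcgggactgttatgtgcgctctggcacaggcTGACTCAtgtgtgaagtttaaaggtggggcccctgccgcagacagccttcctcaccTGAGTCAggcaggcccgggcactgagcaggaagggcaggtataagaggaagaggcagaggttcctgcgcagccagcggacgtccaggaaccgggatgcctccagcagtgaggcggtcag
LAMB3: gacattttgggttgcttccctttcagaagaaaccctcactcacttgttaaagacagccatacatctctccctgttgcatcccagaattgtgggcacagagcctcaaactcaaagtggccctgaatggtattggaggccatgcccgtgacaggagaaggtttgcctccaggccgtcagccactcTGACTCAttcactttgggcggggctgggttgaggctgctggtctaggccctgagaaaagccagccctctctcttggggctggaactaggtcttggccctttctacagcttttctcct
The LAMA3 window held 2 matches and the LAMB3 window 1. The LAMB3 windows whose start sites lie 0 and 96 bases from the gene start held no match. LAMA3 fell and LAMB3 was called higher, but the LAMB3 call ended under 8 of the 14 other settings.

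The GC box GGGCGG, to which SP1 factors bind, was found on either strand in 19 of the 33 windows, which belong to 14 genes, and in 45.0% of all windows. LAMB1 and LAMC1 encode chains of the same laminins. Below, capitals mark the GC box or its reverse complement CCGCCC, which can overlap each other, in the LAMB1 window at chr7:108003112-108003411 (minus strand) and the LAMC1 window at chr1:183023170-183023469 (plus strand).
LAMB1: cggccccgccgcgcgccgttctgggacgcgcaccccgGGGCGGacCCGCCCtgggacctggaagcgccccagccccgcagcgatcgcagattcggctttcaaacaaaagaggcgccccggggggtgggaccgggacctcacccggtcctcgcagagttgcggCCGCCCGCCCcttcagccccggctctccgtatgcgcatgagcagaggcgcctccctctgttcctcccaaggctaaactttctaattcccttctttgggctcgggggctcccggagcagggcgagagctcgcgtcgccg
LAMC1: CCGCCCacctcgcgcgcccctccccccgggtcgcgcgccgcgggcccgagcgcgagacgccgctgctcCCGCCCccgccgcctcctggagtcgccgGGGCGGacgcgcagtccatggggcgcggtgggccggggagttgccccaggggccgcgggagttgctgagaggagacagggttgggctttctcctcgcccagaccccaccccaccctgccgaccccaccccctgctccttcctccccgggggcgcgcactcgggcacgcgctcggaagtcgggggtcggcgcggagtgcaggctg
The LAMB1 window held 4 matches and the LAMC1 window 3. LAMB1 fell, and LAMC1 was not called. A match describes the sequence only, and no binding was measured.

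Among the laminins, 11 of 12 genes were tested, 4 fell (36.4%, against 16.8% of all tested genes) and 2 rose (18.2%, against 18.5%). The laminin alpha chains are the largest and set which receptors a laminin binds. LAMA5 (chr20:62307955-62351989), the alpha chain of most adult basement membranes, had 25.9, 27.1 and 29.8 CPM (counts scaled to library size, with TMM) in DSF/Cu, against 54.5, 43.8 and 47.8 CPM in DMSO. All DSF/Cu libraries lay below all DMSO libraries, and the log2 change was -0.82 ± 0.10 (SE, edgeR adjusted p = 0.00163). LAMA3, the alpha chain of the epithelial anchoring laminin, had 14.2, 17.4 and 18.6 CPM in DSF/Cu, against 28.3, 26.9 and 26.5 CPM in DMSO. Its groups did not overlap either, with a log2 change of -0.70 ± 0.12 (edgeR adjusted p = 0.00501). LAMA5 overlaps ADRM1, a proteasome gene on the opposite strand with 125995 counts over the 6 libraries, against 14849 for LAMA5. The sources used here do not say whether counting used strand, so reads of the pair cannot be told apart. ADRM1 changed by 0.59 ± 0.07 (log2), opposite in sign to LAMA5.

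The other alpha chains were low. LAMA1 (chr18:6941742-7117797), typical of the early embryo, had 2.82, 5.52 and 4.63 CPM in DSF/Cu, against 1.14, 0.269 and 0.923 CPM in DMSO. Its log2 change was 2.47 ± 0.54 (edgeR adjusted p = 0.0131). The counts behind it were 159, 319 and 245 in DSF/Cu and 87, 18 and 61 in DMSO, so low counts carried the rise. With the replicate number as a block its adjusted p was 0.0507. LAMA2, the alpha chain of muscle laminin, averaged 1.68 ± 0.309 CPM in DSF/Cu and 0.634 ± 0.350 CPM in DMSO (SD, n = 3 each) and was not called by edgeR (log2 change 1.41 ± 0.50, adjusted p = 0.0691), though all DSF/Cu libraries lay above all DMSO libraries. DESeq2 called it higher (adjusted p = 0.00748). LAMA4, found around vessels and in fat, had 0.558 ± 0.401 CPM in DSF/Cu and 0.591 ± 0.229 CPM in DMSO.

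The beta chains split. LAMB1 (chr7:107923799-108003176) had 110, 113 and 125 CPM in DSF/Cu, against 173, 162 and 172 CPM in DMSO, a log2 change of -0.55 ± 0.07 (edgeR adjusted p = 0.00141). LAMB2 (chr3), which takes the place of LAMB1 in some laminins, had 55.9, 48.1 and 54.4 CPM in DSF/Cu, against 80.8, 74.1 and 72.7 CPM in DMSO, a log2 change of -0.52 ± 0.08 (edgeR adjusted p = 0.00357). For both, every DSF/Cu library was below every DMSO library. LAMB3 (chr1:209614870-209652425), the beta chain of the epithelial anchoring laminin, had 256, 222 and 248 CPM in DSF/Cu, against 209, 194 and 189 CPM in DMSO. It was called higher, by 0.29 ± 0.07 (log2, edgeR adjusted p = 0.0196), with no overlap of the groups. The LAMB3 call ended under total-count scaling (0.108, adjusted p = 0.276) and in limma with the 3 FPKM settings (0.001 to 0.12, adjusted p from 0.21 to 0.99). It also ended without DSF/Cu replicate 1 or 3 or DMSO replicate 2 or 3, with changes of 0.25 to 0.28 (edgeR adjusted p from 0.0538 to 0.0694). LAMB4 was near the filter, at 0.247 ± 0.0638 CPM in DSF/Cu and 0.174 ± 0.204 CPM in DMSO.

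LAMC1 did not pass the test. It had 281, 299 and 299 CPM in DSF/Cu, against 328, 314 and 306 CPM in DMSO (log2 change -0.11 ± 0.05, edgeR adjusted p = 0.152). The DSF/Cu libraries lay below the DMSO libraries by a small step, and LAMC1 was called lower under total-count scaling (edgeR adjusted p = 0.00896). Limma with the 3 FPKM settings also called it lower (adjusted p from 0.00564 to 0.0109). LAMC3, another gamma chain, was listed at 0 in all libraries.

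**Figure D2:**
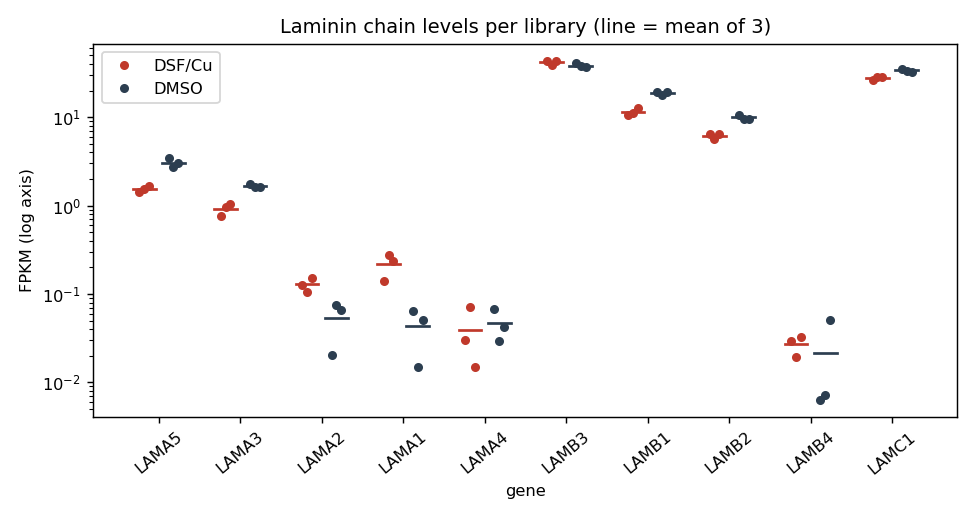
FPKM (log axis) of 10 laminin chains in each library, DSF/Cu in red and DMSO in dark blue, with a line at the mean of 3. LAMB3 and LAMC1 are the highest of these in both groups, and LAMA2, LAMA1, LAMA4 and LAMB4 stay under 0.3 FPKM in every library.

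Levels per transcript length (FPKM, as deposited) placed the alpha chains far below their partners. Summed over the alpha chains, FPKM was 2.84 ± 0.337 in DSF/Cu and 4.88 ± 0.441 in DMSO (SD, n = 3 each). The sum over the beta chains was 59.3 ± 3.57 in DSF/Cu and 67.1 ± 3.28 in DMSO. FPKM carries no TMM scaling, so the differences in these sums include the shift between scalings, while ratios within a library do not. The FPKM ratio of LAMA3 to LAMB3 averaged 0.0220 ± 0.00396 in DSF/Cu and 0.0437 ± 0.000731 in DMSO. These chains of the epithelial anchoring laminin changed unequally, and the groups did not overlap in this ratio.

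The same held for the chains of the LAMC1-containing laminins. The FPKM ratio to LAMC1 was 0.0554 ± 0.00277 in DSF/Cu and 0.0908 ± 0.00802 in DMSO for LAMA5. It was 0.413 ± 0.0213 in DSF/Cu and 0.560 ± 0.0260 in DMSO for LAMB1, and 0.221 ± 0.0234 in DSF/Cu and 0.295 ± 0.00699 in DMSO for LAMB2. In all 3 ratios every DSF/Cu library was below every DMSO library. Among the beta chains, LAMB3 held 70.2 ± 1.24% of the summed FPKM in DSF/Cu and 57.0 ± 0.922% in DMSO. Among alpha chains, the low genes LAMA1 and LAMA2 together with the rest left LAMA5 with 54.5 ± 2.73% in DSF/Cu and 62.7 ± 1.81% in DMSO. These pairs of chains were chosen with their values known, so the ratios and shares are described without a test.

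Of the 26 integrin genes, 16 were tested, 3 fell (18.8%, against 16.8% of all tested genes) and 2 rose (12.5%, against 18.5%), shares near those over all genes. Among alpha chains, ITGA3 (chr17:50055968-50090480), the alpha chain of a receptor for the epithelial anchoring laminin, showed the largest fall that passed the test. It had 204, 207 and 219 CPM in DSF/Cu, against 404, 363 and 360 CPM in DMSO (log2 change -0.84 ± 0.06, edgeR adjusted p = 0.000239). The DSF/Cu libraries lay close together, far below all DMSO libraries. ITGAE, which pairs with ITGB7 in lymphocytes of epithelia, had 22.3, 18.3 and 23.4 CPM in DSF/Cu, against 29.6, 32.3 and 33.3 CPM in DMSO (-0.57 ± 0.11, edgeR adjusted p = 0.00935). Its partner ITGB7 was listed at 0 in all 6 libraries. ITGAE spans HASPIN, a mitotic kinase gene on the opposite strand with 15371 counts in all against 10171 for ITGAE, so reads of these genes cannot be told apart either. HASPIN had a log2 change of 0.01 ± 0.07.

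ITGA6, the alpha chain that pairs with ITGB1 or ITGB4 to bind laminin, had 135, 271 and 157 CPM in DSF/Cu, against 323, 274 and 260 CPM in DMSO. DSF/Cu replicate 2 lay among the DMSO libraries and the others well below. The log2 change was -0.60 ± 0.26 and was not called (edgeR adjusted p = 0.119). Without DSF/Cu replicate 2 it was -0.96 and called (edgeR adjusted p = 0.00512). Limma with the 3 FPKM settings also called ITGA6 lower (adjusted p from 0.0317 to 0.0488). ITGA2, the alpha chain of a collagen and laminin receptor, varied within both groups, with 75.9, 65.2 and 169 CPM in DSF/Cu, against 92.7, 159 and 182 CPM in DMSO (-0.48 ± 0.41, edgeR adjusted p = 0.417). Here DSF/Cu replicate 3 and DMSO replicate 1 stood apart from their groups, which overlapped. The change was -1.03 (edgeR adjusted p = 0.0509) without DSF/Cu replicate 3, -0.73 without DMSO replicate 1 and -0.24 to -0.30 without DSF/Cu replicate 1 or 2 or DMSO replicate 3.

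ITGAV, which pairs with ITGB1, ITGB3 and ITGB5, averaged 200.1 ± 12.6 CPM in DSF/Cu and 179 ± 25.9 CPM in DMSO (0.16 ± 0.11, edgeR adjusted p = 0.308). Without DMSO replicate 1 it was called higher (0.28, adjusted p = 0.0351), and under total-count scaling its sign turned (-0.0250, adjusted p = 0.891). ITGA5, the alpha chain of the fibronectin receptor, averaged 117 ± 5.63 CPM in DSF/Cu and 128 ± 1.76 CPM in DMSO, with no overlap of the groups but no call (-0.13 ± 0.06, edgeR adjusted p = 0.114). Total-count scaling called it lower (-0.318, edgeR adjusted p = 0.00474), as did limma with the 3 FPKM settings (adjusted p from 0.00223 to 0.00616). ITGA1, a collagen-binding chain, averaged 16.4 ± 4.90 CPM in DSF/Cu and 17.8 ± 2.91 CPM in DMSO and overlaps PELO, with 36033 counts on the same strand. ITGA10 and ITGA7 reached at most 1.25 CPM in any library and were not called (edgeR adjusted p = 0.962 and 0.149).

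ITGAM (chr16), the alpha chain of complement receptor on myeloid cells, had no counts in DMSO and 121, 33 and 29 counts in DSF/Cu, or 2.14, 0.572 and 0.548 CPM. It was called higher (edgeR adjusted p = 0.00815). Against a floor of 3 counts over the DMSO group it was at least 76.4-fold higher, if the listed counts are numbers of reads. Low counts here need not be, so the bound is uncertain. Replicate 1 held most of these counts, and without it the bound was 39.1-fold. In limma on log2(FPKM + 1) it was not called (adjusted p = 0.0841). Its usual partner ITGB2 averaged 12.6 ± 0.215 CPM in DSF/Cu and 14.6 ± 0.966 CPM in DMSO (-0.22 ± 0.10, edgeR adjusted p = 0.126), with no overlap of the groups. Total-count scaling called ITGB2 lower (edgeR adjusted p = 0.0202). So did limma with the 3 FPKM settings (adjusted p from 0.0177 to 0.0427). Of 6 leukocyte markers, 3 were tested. CD14 and CSF1R rose (66.7%, against 18.5% of all tested genes) and none fell (against 16.8%). The list summed to 129 to 177 CPM in DSF/Cu and 96.5 to 184 CPM in DMSO, mostly from the marker that was tested but not called. CSF1R averaged 4.08 ± 0.585 CPM in DSF/Cu and 1.83 ± 0.148 CPM in DMSO. CD14 averaged 1.62 ± 0.564 CPM in DSF/Cu and 0.264 ± 0.167 CPM in DMSO. Of the markers not tested, CD3E was at 0 in all libraries. PTPRC, the defining leukocyte gene, had 14 counts in all, at 0.213, 0 and 0.0378 CPM in DSF/Cu and 0 in DMSO. Within DSF/Cu, CD14 and CSF1R were also highest in replicate 1, though the summed list was not. The part of the leukocyte markers in the ITGAM result was not tested.

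The 8 other alpha chains were not tested. ITGA2B and ITGAD were at 0 throughout. ITGA8, ITGA11, ITGAX and ITGAL had no counts in DMSO and sums of 12, 23, 23 and 4 counts over the DSF/Cu libraries. ITGA9 had 39 counts in DSF/Cu and 10 in DMSO, and ITGA4 had 4 in DSF/Cu and 62 in DMSO. At these depths no change could be read.

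**Figure D3:**
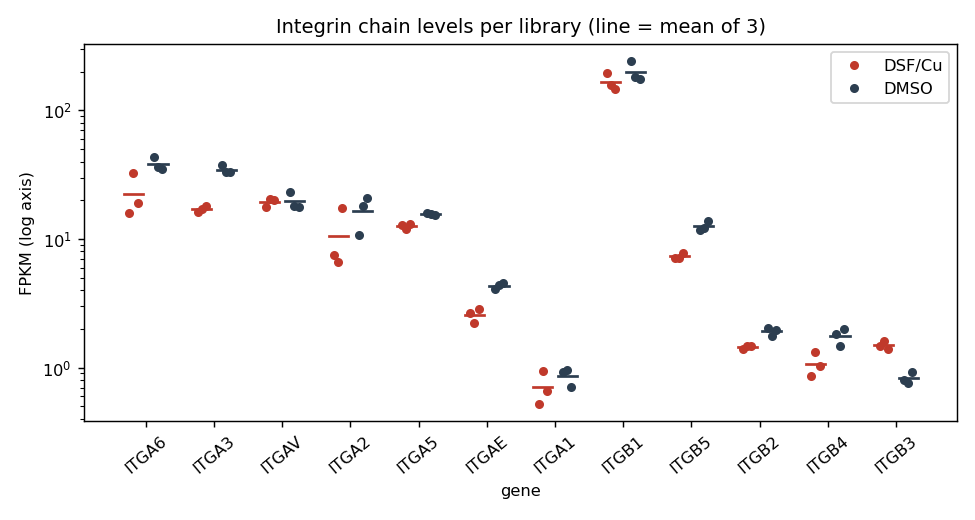
FPKM (log axis) of 7 integrin alpha and 5 beta chains in each library, DSF/Cu in red and DMSO in dark blue, with a line at the mean of 3. ITGB1 stands highest in both groups, and ITGA6 and ITGA2 have 1 DSF/Cu library each apart from the other 2.

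Beta chains changed in both directions. ITGB1, the beta chain shared by most integrins of these cells, had 1490, 1181 and 1086 CPM in DSF/Cu, against 1600, 1219 and 1175 CPM in DMSO, and its groups overlapped (log2 change -0.09 ± 0.16, edgeR adjusted p = 0.708). Per length, it held 93.5 ± 1.08% of the summed beta-chain FPKM in DSF/Cu and 91.9 ± 1.63% in DMSO. ITGB5 (chr3:124761948-124901418), a partner of ITGAV in vitronectin receptors, had 59.2, 57.6 and 62.4 CPM in DSF/Cu, against 83.9, 89.4 and 99.96 CPM in DMSO (-0.61 ± 0.08, edgeR adjusted p = 0.00188). ITGB3, the alternative partner of ITGAV, had 8.28, 8.82 and 7.55 CPM in DSF/Cu, against 3.91, 3.76 and 4.51 CPM in DMSO (1.02 ± 0.14, edgeR adjusted p = 0.00221). All DSF/Cu libraries lay below all DMSO libraries for ITGB5 and above them for ITGB3.

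ITGB4, the beta chain of hemidesmosomes, had 7.48, 11.2 and 8.55 CPM in DSF/Cu, against 13.6, 11.2 and 15.0 CPM in DMSO, and the groups overlapped. Its log2 change of -0.55 ± 0.19 was not called by edgeR (adjusted p = 0.0661), while DESeq2 called it lower (adjusted p = 0.0126), as did edgeR without DSF/Cu replicate 2 (adjusted p = 0.0325). Total-count scaling called it lower too (edgeR adjusted p = 0.0259). So did limma with the 3 FPKM settings (adjusted p from 0.0185 to 0.0366). ITGB4 overlaps GALK1 on the opposite strand, which had 3982 counts in all against 4293 for ITGB4 and itself changed by -0.91 ± 0.10 (log2). ITGB8, which pairs with ITGAV, averaged 0.0966 ± 0.0839 CPM in DSF/Cu and 0.304 ± 0.134 CPM in DMSO and was not called (edgeR adjusted p = 0.269). ITGB6 had 8 counts in DSF/Cu and 20 in DMSO over the group and was not tested.

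Relative to ITGAV within a library, ITGB5 RNA fell and ITGB3 RNA rose, while ITGB1, which also pairs with ITGAV, was far more abundant than these. The FPKM ratio of ITGB5 to ITGAV averaged 0.377 ± 0.0288 in DSF/Cu and 0.654 ± 0.137 in DMSO, and that of ITGB3 to ITGAV averaged 0.0769 ± 0.00696 in DSF/Cu and 0.0430 ± 0.00839 in DMSO. Neither ratio overlapped between groups, and ITGB5 remained the more abundant of the pair in both. The ratio of ITGA3 to ITGB1 averaged 0.105 ± 0.0198 in DSF/Cu and 0.175 ± 0.0179 in DMSO, again with no overlap. The ratios to ITGB1 of ITGA1, ITGA2, ITGA5, ITGA6 and ITGAV overlapped between the groups. The pairs were chosen with earlier results of these data known, and the ratios were not tested. In DMSO the order of the alpha chains per length was ITGA6 at 38.4 ± 4.70, ITGA3 at 34.6 ± 2.46, ITGAV at 19.7 ± 2.98, ITGA2 at 16.5 ± 5.24 and ITGA5 at 15.7 ± 0.233 FPKM, where libraries of each neighbour overlapped except between ITGA3 and ITGAV. In DSF/Cu, ITGA6 at 22.5 ± 8.86, ITGAV at 19.5 ± 1.53 and ITGA3 at 17.2 ± 0.910 FPKM overlapped from neighbour to neighbour, ITGA5 at 12.7 ± 0.580 FPKM lay below ITGA3 in every library, and ITGA2 at 10.5 ± 5.99 FPKM overlapped ITGA5.

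**Figure D4:**
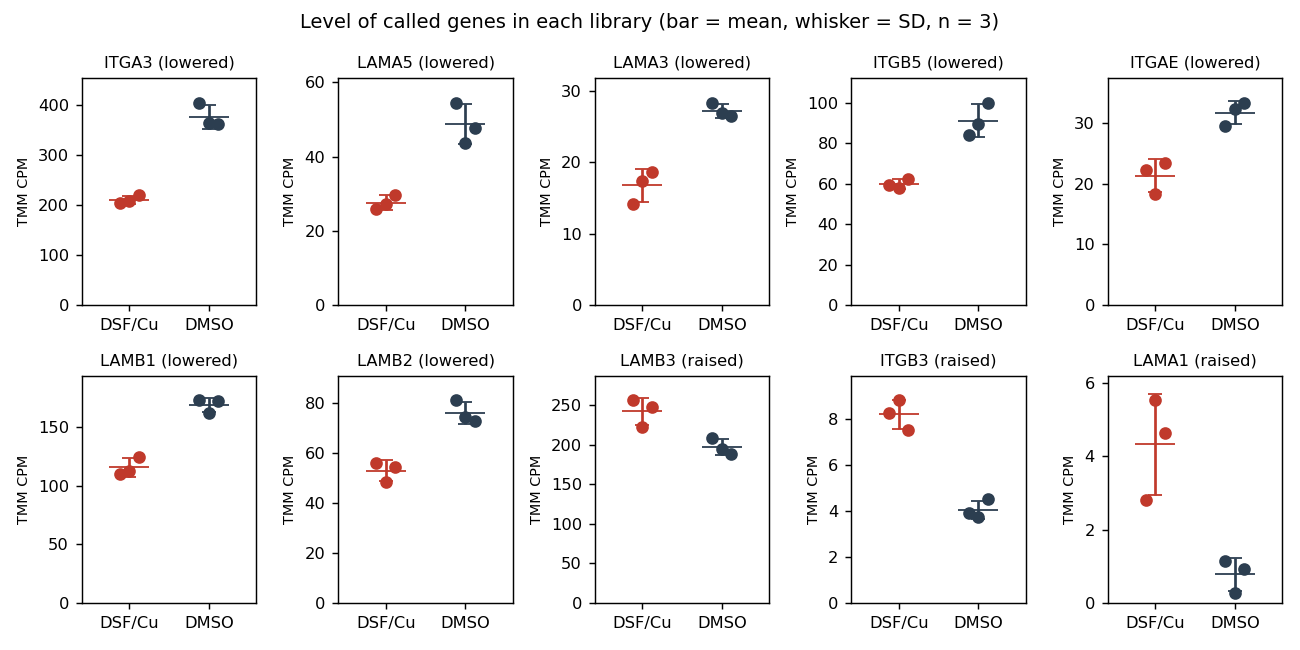
TMM CPM (linear axis from 0) in each library for the 10 called genes other than ITGAM, DSF/Cu left and DMSO right in each panel, with the mean and SD of 3. The groups are apart in all 10 panels, with the smallest relative gap in LAMB3.

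Genes that work with these receptors and ligands were taken from lists chosen with earlier results of these data known. Their shares were not tested against those of all genes. Of 45 tested adhesion adaptors, which link integrin tails to actin and to kinases, 15 rose (33.3%, against 18.5% of all tested genes) and 7 fell (15.6%, against 16.8%), with a median log2 change of 0.07. Total-count scaling gave 9 higher and 12 lower, where it called 12.9% of all tested genes higher and 26.6% lower. FHL2, a LIM protein of focal adhesions, rose by 1.00 ± 0.09 (log2), the focal adhesion kinase PTK2 by 0.43 ± 0.05 and the actin crosslinker ACTN1 by 0.49 ± 0.06, while the tensin TNS3 fell by 0.65 ± 0.06 (edgeR adjusted p from 0.000449 to 0.00175). The test did not call TLN1, the talin that activates integrins (0.02 ± 0.06). Kindlins bind beta-chain tails beside talin, and the genes of this family were singled out after their values were seen. FERMT1 had 11.4, 15.5 and 13.9 CPM in DSF/Cu, against 53.7, 58.1 and 26.6 CPM in DMSO (-1.76 ± 0.30, edgeR adjusted p = 0.00524). FERMT2 had 188, 275 and 200 CPM in DSF/Cu, against 87.8, 140 and 92.5 CPM in DMSO (1.05 ± 0.22, edgeR adjusted p = 0.0122). FERMT3 had 10.2, 8.78 and 10.8 CPM in DSF/Cu, against 6.87, 5.86 and 5.77 CPM in DMSO (0.69 ± 0.14, edgeR adjusted p = 0.0103). FERMT1 thus fell while FERMT2 and FERMT3 rose, with no overlap of the groups. The calls of FERMT1 and FERMT2 held under all 14 other settings, and that of FERMT3 ended with FPKM at a common sum (limma adjusted p = 0.0704).

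Of 13 integrin-associated membrane proteins, all tested, 2 rose (15.4%, against 18.5% of all tested genes) and 7 fell (53.8%, against 16.8%). Their median log2 change was -0.40. SLC3A2, the CD98 heavy chain that binds beta-chain tails and carries amino acid transporters, rose by 0.99 ± 0.08 (log2), and the tetraspanin CD63 rose by 0.46 ± 0.06. CD47, which associates with ITGAV and ITGB3, fell by 0.62 ± 0.07 and the tetraspanin TSPAN4 by 0.93 ± 0.12 (edgeR adjusted p from 0.000264 to 0.00209). The count of falls was 4 without DSF/Cu replicate 2, where 12.8% of all tested genes fell. CD151, the tetraspanin that binds the laminin-binding integrins, is also on this list and on that of 5 hemidesmosome partners. Of these 5, all tested, 1 fell (20%, against 16.8% of all tested genes) and 1 rose (20%, against 18.5%). CD151 fell by 0.93 ± 0.20 (edgeR adjusted p = 0.0134) and ERBIN rose by 0.54 ± 0.07 (edgeR adjusted p = 0.00175). PLEC, DST and COL17A1 were not called.

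Of 10 tested laminin receptors outside the integrins, 4 fell (40%, against 16.8% of all tested genes) and 1 rose (10%, against 18.5%). Their median log2 change was -0.42. The syndecan SDC1 fell to 59.5 ± 1.94 CPM in DSF/Cu, against 119 ± 1.68 CPM in DMSO (SD, n = 3 each; -0.99 ± 0.05, edgeR adjusted p = 8.62e-05). SGCB, a sarcoglycan, fell by 0.41 ± 0.05, the laminin LAMA5 receptor BCAM by 0.76 ± 0.14 and UTRN, which links dystroglycan to actin, by 0.48 ± 0.11. With the replicate number as a block, UTRN was not called (edgeR adjusted p = 0.0564). RPSA, the ribosomal protein also known as laminin receptor, was the gene that rose (0.17 ± 0.04, edgeR adjusted p = 0.0212), but for RPSA the sign turned under total-count scaling (-0.0138), and its many pseudogene copies make its count uncertain. Among 20 tested other matrix ligands, 7 rose (35%, against 18.5% of all tested genes) and 5 fell (25%, against 16.8%), with a median of -0.03. THBS1, thrombospondin, had 905, 825 and 834 CPM in DSF/Cu, against 233, 216 and 228 CPM in DMSO, a log2 change of 1.92 ± 0.06 (edgeR adjusted p = 1.14e-05). CCN2 and CCN1, matrix proteins that bind integrins, rose by 2.10 ± 0.06 and 0.95 ± 0.06, and AGRN, a basement membrane proteoglycan that binds laminin, fell by 0.89 ± 0.08. FN1, which encodes fibronectin, was not called (0.06 ± 0.07). Of 12 tested cell-surface ligands of integrins, 2 fell in edgeR (16.7%, against 16.8% of all tested genes) and none rose (against 18.5%). ICAM3 fell by 0.93 ± 0.17 and ADAM15 by 0.42 ± 0.10. DESeq2 called 4 lower and 1 higher, where it called 21.7% of all tested genes lower and 23.9% higher. Total-count scaling and the FPKM settings called 5 lower, where they called 25.9% to 33.2% of all tested genes lower. ADAM15 was not called without DSF/Cu replicate 3 (edgeR adjusted p = 0.0504).

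**Figure D5:**
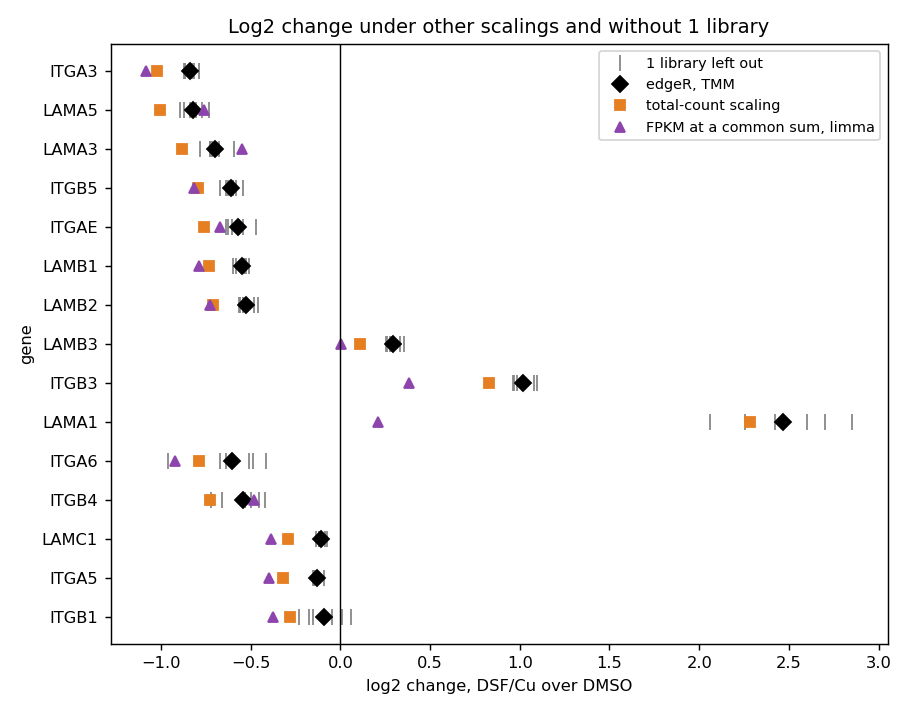
Log2 change (x axis) of the 10 called genes other than ITGAM and of 5 abundant or borderline genes (rows) with TMM scaling (diamonds), total-count scaling (squares), FPKM at a common sum (triangles) and each library left out (ticks). The 7 lowered genes stay left of 0 throughout, and LAMB3 reaches 0.001 with FPKM at a common sum.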

How the data were processed

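Poly(A) RNA was sequenced as paired-end libraries from 3 samples per group. The authors deposited one table with, for each library, whole-number gene counts and FPKM (fragments scaled by transcript length and library size), per the file headers. Columns headed Control were taken as DMSO, the only group in the labels without DSF/Cu. Per the submitters' processing notes, Bowtie 0.12.2, HISAT2 2.0 and StringTie 1.3.0 were used, with no roles named. For the counter and strand setting, the sources used here give nothing. A mouse build is listed too, but all 38 gene IDs occur in GENCODE 29 (GRCh38), 14 with the same start and end. Coordinates were therefore taken as GRCh38, as the table gives them. The offset was largest for LAMA5, at 15323 bases, and next for ITGA4, at 8737 bases. The RefSeq start site of LAMA5 lay 15323 bases outside the gene as the table gives it.

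Low counts were uneven (1205 genes had a count of 4 in DSF/Cu replicate 1, and 419 a count of 3), so a low count need not be a number of reads, and counting intervals are not given. Genes kept by filterByExpr were scaled by TMM and compared by the two-sided quasi-likelihood test of edgeR 4.0.16 in R 4.3.3, tested on simulated data; DESeq2 1.42.0 and limma 3.58.1 were alternatives. The SE is the absolute log2 change over the square root of F. For a gene with 0 counts throughout a group, folds are bounds against 3 counts over that group, and they hold only if the listed counts are numbers of reads. Libraries of one group differed by more than sampling noise (chi-square per degree of freedom 50.1 to 63.4). Members called are given by library; from each list up to 4 called genes by adjusted p are named, and TLN1, FN1, RPSA, DAG1, the kindlins and the basal markers were named besides, after their values were seen. The members and lists were chosen with earlier results of these data known. Results for 1 laminin gene and 1 marker gene are not reported here.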

Additional observations from a re-analysis of the deposited data

How the results depend on the processing

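The counts of genes of the 2 families depended on scaling. Lowered genes numbered 7 in edgeR with TMM, 12 under total-count scaling, 13 with log2(FPKM + 1), 13 with log2(FPKM + 0.1) and 13 with FPKM at a common sum. Raised genes numbered 4 with TMM and 2 with log2(FPKM + 1) or FPKM at a common sum. Over all genes, 3365 were raised and 3059 lowered; FPKM at a common sum gave 1991 raised and 6053 lowered, total-count scaling 4856 lowered, log2(FPKM + 1) 4791 lowered and log2(FPKM + 0.1) 4727 lowered. The split also moved: 52.4% of calls were rises with TMM, 32.7% under total-count scaling, 34.2% with log2(FPKM + 1), 35% with log2(FPKM + 0.1) and 24.8% with FPKM at a common sum. With 1 library left out, 3 to 5 family genes were raised and 7 to 9 lowered, and 2786 to 2953 of all genes raised and 2284 to 2550 lowered.

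Same-numbered libraries of the groups shared little (correlations of their deviations 0.0252, 0.0380 and 0.0535), although each correlated best with its own number. Such correlations over all genes cannot decide whether the numbers pair the libraries. With the replicate block, 3 family genes were raised and 7 lowered, and 2692 and 2451 of all genes. Under the block LAMA1 (2.57, edgeR adjusted p = 0.0507), UTRN (-0.48, 0.0564) and RPSA (0.17, 0.0536) lost their calls.

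The sign turned only in genes that were not called, and in RPSA. ITGAV lay at -0.0250 under total-count scaling, -0.00343 with log2(FPKM + 1), -0.00329 with log2(FPKM + 0.1) and -0.118 with FPKM at a common sum. ITGA10 lay at -0.115, -0.0125, -0.136 and -0.0236 in these, at -0.322 under the replicate block and at -0.283 to 0.563 with 1 library left out. With 1 library left out, ITGA1 ran from -0.373 to 0.0552, ITGB1 from -0.230 to 0.0612 and LAMA4 from -0.810 to 0.294. RPSA lay at -0.0138 under total-count scaling and -0.119 with FPKM at a common sum. The causes were not tested. For the 27 genes, 321 of the other values kept direction and call. The ITGAM bound without 1 DSF/Cu library, 39.1-fold to 95.8-fold, was added after seeing the data.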

Other observations

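Of 5 basal epithelial markers, 4 were tested, of which 2 rose (50%, against 18.5% of all tested genes) and 1 fell (25%, against 16.8%). KRT17, a keratin of basal and injured epithelium whose pseudogene copies make its count uncertain, had 6.40, 5.84 and 5.14 CPM in DSF/Cu, against 0.157, 0.313 and 0.0757 CPM in DMSO, a log2 change of 4.98 ± 0.46 (edgeR adjusted p = 0.000521). TP63, the transcription factor of basal cells, had 3.97, 3.13 and 2.89 CPM in DSF/Cu, against 0.249, 0.343 and 0.121 CPM in DMSO (3.80 ± 0.40, edgeR adjusted p = 0.000773). EGFR was lowered, by 0.24 ± 0.06 on the log2 scale (edgeR adjusted p = 0.0206), KRT14 was not called and KRT5 was at 0 in all libraries.

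DAG1, which encodes dystroglycan, a laminin receptor, had 19.9, 6.06 and 133 CPM in DSF/Cu, against 264, 15.8 and 249 CPM in DMSO. The libraries of each group differed from each other by more than the groups did, and the gene was not called (edgeR adjusted p = 0.359).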
